A study of Mus musculus with 6 samples.

Results

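The genes described here belong to JAK-STAT signalling, the route by which thrombopoietin and other cytokines act through JAK kinases and STAT factors. They were taken from a list of 9 gene names, Jak2, Tyk2, Stat5a, Stat5b, Stat3, Sh2b3, Socs3, Cbl and Lyn, by the gene symbol of the array's probes. Of these, 8 were named by a probe with a single gene symbol, out of 30142 genes in all. No probe used here carries the symbol Lyn, the SRC family kinase of the list, so Lyn was not analysed here. Cbl had 2 probes, of which the probe with the higher mean over the 6 arrays was used, and each other gene had 1.

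RNA was measured on 6 Clariom D Mouse arrays, 3 of platelets isolated from mouse blood and 3 of bone marrow cells labelled as megakaryocyte progenitors. The animals had received PBS as control, CTC41-EVs or CTC41.5G-EVs, with 1 array per treatment in each cell type, where EVs is the usual short form of extracellular vesicles. Every array stands for a pool of the animals of its group, so no combination of cell type and treatment was replicated. Strain, age, dose, time of treatment and the meaning of the EV names were not stated in the labels, nor was it stated which pools were cleared of leukocytes and erythrocytes with magnetic beads.

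Cytokines that drive the formation of blood cells, such as thrombopoietin for platelets, signal through JAK kinases bound to receptors that have no kinase of their own. Jak2, helped by Tyk2, phosphorylates the factors Stat5a, Stat5b and Stat3, which then enter the nucleus and switch on target genes. The route is held down by the adaptor Sh2b3, also called LNK, by the suppressor Socs3, by the ubiquitin ligase Cbl, which marks activated receptors and kinases for degradation, and, in megakaryocytes, by Lyn.

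Promoter sequences are given for the 3 members that differed most between the cell types, Cbl, Jak2 and Sh2b3, and for Socs3, a known target of STAT factors. They are the 250 bases before a RefSeq start of each gene in GRCm38.p6, written 5′ to 3′ on the gene's strand. The window of Jak2 lies wholly before the gene's RefSeq span, whereas those of Cbl, Sh2b3 and Socs3 overlap the span, so RefSeq also holds transcripts of these genes that start further upstream. Capitals mark a match to the STAT word TTCNNNGAA.
Cbl (chr9:44234047-44234296, - strand): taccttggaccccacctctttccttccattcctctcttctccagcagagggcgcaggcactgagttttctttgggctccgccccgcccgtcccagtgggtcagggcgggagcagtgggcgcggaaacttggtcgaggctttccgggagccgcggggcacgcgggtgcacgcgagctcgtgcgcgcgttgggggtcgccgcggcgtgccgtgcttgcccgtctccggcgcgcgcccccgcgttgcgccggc
Jak2 (chr19:29251553-29251802, + strand): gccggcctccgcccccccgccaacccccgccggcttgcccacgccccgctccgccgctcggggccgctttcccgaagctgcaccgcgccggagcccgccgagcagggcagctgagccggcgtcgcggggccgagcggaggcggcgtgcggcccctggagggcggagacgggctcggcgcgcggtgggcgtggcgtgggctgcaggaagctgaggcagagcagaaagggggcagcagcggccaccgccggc
Sh2b3 (chr5:121836105-121836354, - strand): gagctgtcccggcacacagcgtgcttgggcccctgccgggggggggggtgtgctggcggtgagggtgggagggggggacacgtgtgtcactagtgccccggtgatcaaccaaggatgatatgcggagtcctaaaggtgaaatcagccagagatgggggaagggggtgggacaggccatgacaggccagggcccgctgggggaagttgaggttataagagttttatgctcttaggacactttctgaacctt
Socs3 (chr11:117969367-117969616, - strand): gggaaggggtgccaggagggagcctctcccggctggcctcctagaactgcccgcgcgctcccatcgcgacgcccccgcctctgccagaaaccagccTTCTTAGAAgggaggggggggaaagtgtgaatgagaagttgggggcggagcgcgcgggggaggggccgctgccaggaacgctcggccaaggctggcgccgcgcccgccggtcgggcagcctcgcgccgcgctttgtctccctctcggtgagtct
RefSeq gave 10 such windows for the 8 members, since Stat5a and Stat5b each had 2 starts. The STAT word, which reads the same on each strand, was found in 1 of the 10 windows, that of Socs3, and in 7.02% of all 32851 windows. Neither the ETS word CCGGAAG (6.91% of all windows, searched with CTTCCGG) nor the GATA word AGATAA (9.99%, searched with TTATCT) was found in any of the 10, and no match overlapped another. The windows of Cbl and Jak2 had a GC content of 71.6% and 80.8%, that of Socs3 71.6% and that of Sh2b3 60.8%. These are matches of letters and say nothing about binding.

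Platelet arrays carried the labelled cell type's markers. Of 14 platelet and megakaryocyte genes measured, 14 were higher in platelets, and their median log2 signal spanned 9.56 to 10.17 in platelets and 5.33 to 5.49 in progenitors, where 2 of the 14, Clec1b and P2ry12, had a mean below 4.23. That value, the 50th percentile of all probes, was the floor for testing a gene between the cell types. On the progenitor arrays the integrin gene Itga2b stood at 6.50, 6.45 and 6.58 and the receptor kinase gene Kit at 5.80, 6.06 and 6.22. Of the stem and progenitor list, Slamf1 stood at 4.46, 4.57 and 4.75 there against 9.46, 9.36 and 9.78 in platelets, and Mecom lay below the floor in both. These 4 genes were chosen after their values were seen. Of 9 stem and progenitor genes measured, 1 lay below the floor in progenitors and 3 in platelets. The median of that list was 4.86 to 5.14 in progenitors and 4.67 to 4.71 in platelets. On the progenitor arrays 0 of 16 neutrophil genes lay below the floor. The neutrophil median was 6.50 to 6.59 there and 4.70 to 5.02 in platelets, with myeloperoxidase, Mpo, at 7.75, 8.22 and 8.41 against 4.93, 4.80 and 5.03. Genes of neutrophils and their precursors were thus measured on the arrays labelled as progenitors, and their part in the values below was not tested. Of 10 erythroid genes tested, 4 were called higher in platelets and 0 lower. The 2 largest differences were those of Alas2, at 9.88, 9.82 and 9.85 in platelets against 5.12, 4.99 and 5.19, and Slc4a1, higher by 2.17. Epor, Ermap and Rhd went the other way (-0.22, -0.20 and -0.26) and were not called. The median of the erythroid list was 5.05 to 5.18 in platelets and 4.99 to 5.19 in progenitors. Some erythroid genes, Alas2 above all, were thus measured on the platelet arrays, and their part in the values below was not tested. Called lower were 4 of 8 B cell genes and 1 of 9 T and NK cell genes. Of 6 monocyte genes 0 were called in either direction, and of 8 stem and progenitor genes 1 was called higher and 2 lower. Of all genes tested, 16.2% were called higher and 25.7% lower. These calls depend on the scaling. Under 3 other scalings 6 or 7 of the 10 erythroid genes and 3 or 4 of the 6 monocyte genes were called higher. Called lower were then 1 of the 8 B cell genes and 0 of the T and NK cell genes. In pooled samples, fewer cells of a type and less RNA per cell cannot be told apart. Within platelets arrays correlated at 0.961 to 0.967 over all probes, within progenitors at 0.973 to 0.983, and between the cell types at 0.823 to 0.838.

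The first comparison asked how the members differed between platelets and progenitors over the 3 treatments. Cbl, Jak2 and Sh2b3 were higher in platelets, Cbl by 11.4-fold and Sh2b3 by 1.9-fold. Jak2 was higher by 6.29-fold with its progenitor mean, which is at background, raised to the floor. The other 5 members differed by less than the 1.5-fold threshold. As deposited, the called genes were thus a JAK kinase and 2 of the genes that restrain JAK signalling, and none was a STAT gene. With arrays scaled to the same median, Stat5b and Stat3 were called higher as well. A gene was called at an adjusted p of at most 0.05 in limma and a difference of at least 1.5-fold. By this rule 3 of 8 members were called higher and 0 lower, beside 16.2% of all 18875 genes tested called higher and 25.7% called lower, or 41.9% in either direction. At the adjusted p alone, with any fold, 5 of 8 passed, beside 72.7% of all genes. The median difference was 0.33 over the members and -0.26 over all genes tested.

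**Figure D1:**
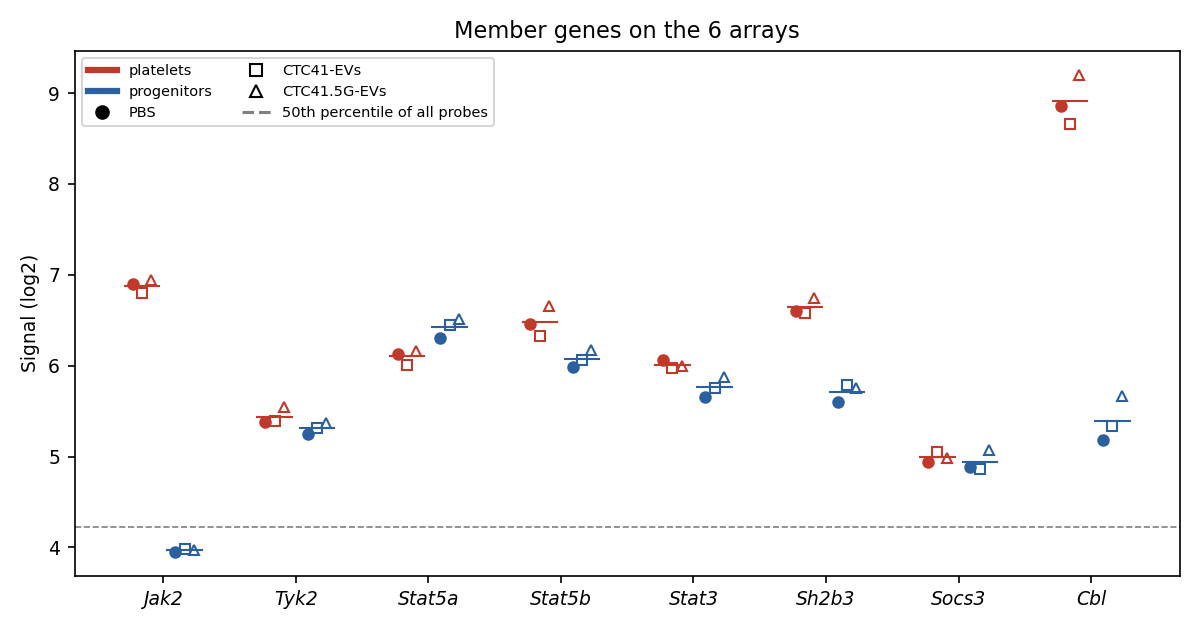
The log2 signal of the 8 measured members on each of the 6 arrays, with platelets in red and progenitors in blue, symbols for the treatment, bars for the mean of 3 arrays and the floor of 4.23 as a dashed line. Cbl and Jak2 are far apart between the cell types, Sh2b3 is apart by a smaller step, and the 3 Jak2 values of progenitors lie under the floor.

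Jak2, a kinase bound to cytokine receptors, stood at 6.90, 6.80 and 6.94 in platelets and at 3.95, 3.98 and 3.98 in progenitors, where triplets here and below list PBS first, then CTC41-EVs, then CTC41.5G-EVs. The platelet values lay close together and well above the floor, while all 3 progenitor values lay under it. The means were 6.88 ± 0.08 (SD, n = 3) and 3.97 ± 0.02, a log2 difference of 2.91 with SE 0.09 (95% interval 2.70 to 3.12, adjusted p = 1.93e-06). Since the progenitor level is at background, this size is not exact, and with the progenitor mean raised to the floor the difference was 2.65.

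Tyk2, the other JAK kinase among the members, stood at 5.38, 5.39 and 5.54 in platelets and at 5.24, 5.32 and 5.37 in progenitors. The groups did not overlap, but the gap was 0.13 (SE 0.09, 95% interval -0.07 to 0.33, adjusted p = 0.208) and did not pass. The values of 7 of the 8 members did not overlap between the cell types, with Socs3 as the exception, and this held for 78.4% of all genes tested, so a lack of overlap was common on these arrays.

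Stat5a and Stat5b, paralogs that lie side by side on chromosome 11 with Stat3 next to them, are the factors that carry most of the thrombopoietin signal to the nucleus, and they differed in opposite directions as deposited. Stat5a stood at 6.13, 6.01 and 6.16 in platelets and at 6.31, 6.45 and 6.51 in progenitors. Each platelet value lay below each progenitor value, with a difference of -0.32 (SE 0.12, 95% interval -0.59 to -0.05, adjusted p = 0.0385), which is under the fold threshold. Its sign depended on scaling: it was 0.06 with array medians set equal and 0.40 when olfactory receptor genes set the centre of each array. Stat5b stood at 6.45, 6.32 and 6.66 in platelets and at 5.99, 6.06 and 6.17 in progenitors. Here each platelet value lay above each progenitor value, with a difference of 0.40 (SE 0.11, 95% interval 0.13 to 0.68, adjusted p = 0.0152), also under the fold threshold.

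The within-array ratio of the paralogs is free of any scaling that shifts a whole array. The log2 ratio of the Stat5b signal to the Stat5a signal was 0.32, 0.31 and 0.49 in platelets and -0.32, -0.39 and -0.34 in progenitors. The means were 0.38 ± 0.10 (SD, n = 3) and -0.35 ± 0.04, so the ratio was higher by 0.73 in platelets on the log2 scale. The probes of the 2 genes thus changed unequally between the cell types, whichever of the shifts is applied. Only this ratio was computed, and it was chosen after the values were seen.

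Stat3, the factor shared with gp130 cytokines, stood at 6.058, 5.974 and 6.001 in platelets and at 5.65, 5.76 and 5.87 in progenitors. The groups did not overlap, though the highest progenitor value, that of CTC41.5G-EVs, came within a short step of the platelet values. The difference of 0.25 (SE 0.11, 95% interval -0.0007 to 0.50, adjusted p = 0.0672) did not pass.

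Among the genes that restrain the pathway, Cbl had the largest difference of the members. It stood at 8.85, 8.66 and 9.20 in platelets and at 5.18, 5.34 and 5.67 in progenitors. The arrays of CTC41.5G-EVs were the highest in each cell type, and the cell types were far apart in every treatment. The means were 8.91 ± 0.27 (SD, n = 3) and 5.40 ± 0.25, a log2 difference of 3.51 with SE 0.14 (95% interval 3.18 to 3.85, adjusted p = 3.03e-06), the 201st from the top among all genes tested.

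Sh2b3, an adaptor that binds Jak2, stood at 6.60, 6.58 and 6.74 in platelets and at 5.60, 5.79 and 5.75 in progenitors. The groups were clear of each other, with means of 6.64 ± 0.09 (SD, n = 3) and 5.71 ± 0.10 and a difference of 0.93 (SE 0.11, 95% interval 0.66 to 1.19, adjusted p = 0.000298). Socs3, a suppressor that binds JAK kinases, stood at 4.94, 5.05 and 4.99 in platelets and at 4.88, 4.87 and 5.07 in progenitors. Its values overlapped, and the difference was 0.05 (SE 0.09, 95% interval -0.15 to 0.26, adjusted p = 0.591).

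The arrays of the cell types differed in overall level, with a median over all probes of 4.005 to 4.05 in platelets and 4.38 to 4.45 in progenitors, and the authors' scaling is not settled by the sources used here. Jak2, Sh2b3 and Cbl were called higher in each of 4 scalings. With arrays scaled to the same median Stat5b (0.78) and Stat3 (0.63) were called higher too, so that 5 of 8 members were called, beside 24.8% of all genes called higher. With arrays centred on 1084 olfactory receptor genes, which blood cells are not known to use widely, 7 of 8 were called higher, beside 40.4% of all genes, and Stat5a at 0.40 was the exception. The median of all genes moved from -0.26 as deposited to 0.05 after quantile normalization, 0.11 with equal medians and 0.46 with olfactory centring. Measured from the median of all genes as deposited, the differences were 3.77 for Cbl, 3.17 for Jak2, 1.19 for Sh2b3, 0.67 for Stat5b, 0.51 for Stat3, 0.39 for Tyk2, 0.32 for Socs3 and -0.06 for Stat5a.

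**Figure D2:**
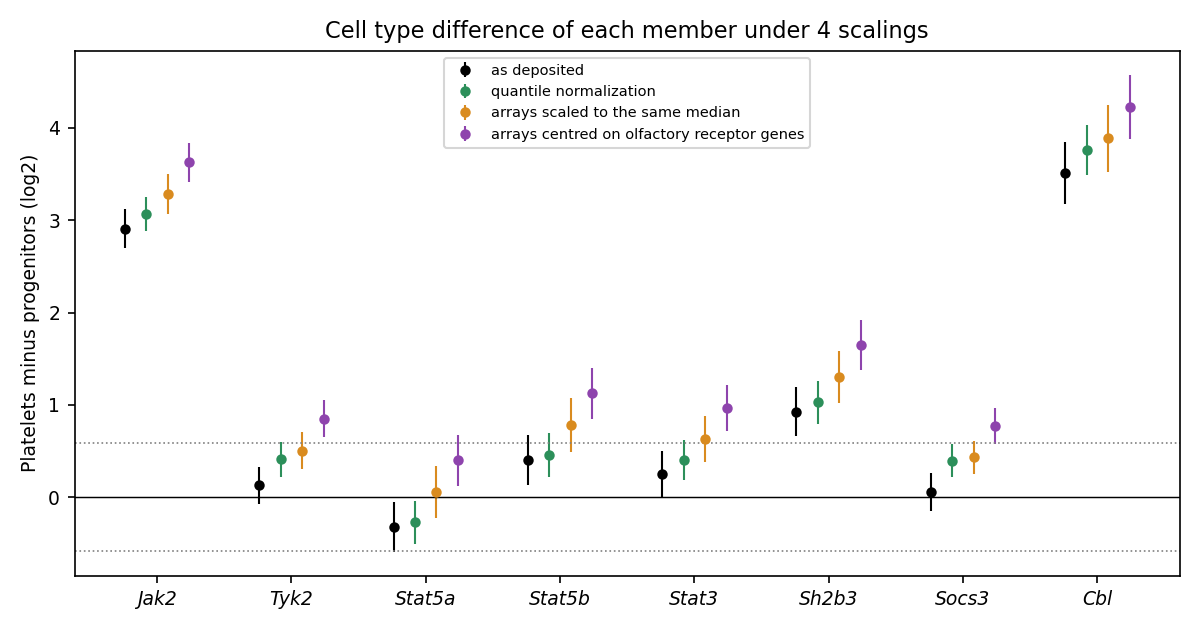
The log2 difference between platelets and progenitors of each member, with its 95% interval from limma, as deposited and under 3 other scalings, where dotted lines mark a 1.5-fold difference. Cbl, Jak2 and Sh2b3 lie above the upper line in all 4 scalings, while Stat5a goes from -0.32 to 0.40.

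The other genes of the route were taken from lists, and 92 of them were tested. Of these 27 were called higher and 9 lower in platelets, with a median difference of 0.09, beside 16.2% and 25.7% of all genes and their median of -0.26. Both shares depend on the scaling: of all genes, 21.9% were called higher and 12.1% lower after quantile normalization, 24.8% and 10.1% with equal medians, and 40.4% and 5.45% with olfactory centring. Counts of a list under the 3 other scalings are given in this order and read against these shares. Jak1, the JAK kinase of gp130 and interferon receptors, was higher together with Jak2. It stood at 7.72, 7.46 and 7.80 in platelets and at 4.94, 5.09 and 5.01 in progenitors, a difference of 2.65 (SE 0.13, adjusted p = 6.03e-06). Stat2 and Stat6 differed by -0.06 and -0.04 and were not called, except that all 3 genes were called higher with olfactory centring.

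Of 23 cytokine and receptor genes tested, 2 were called higher and 5 lower, with a median of -0.28, close to that of all genes. Under the other scalings 3, 5 and 8 were higher and 1 lower each time. Higher were Il6st, which encodes gp130, by 1.03 and Il10rb, a subunit of the interleukin 10 receptor, by 0.93. Kit, the receptor of stem cell factor, differed by -1.39, and the cytokine genes Lif and Flt3l by -0.89 and -0.79. Kit was called lower in each of the 4 scalings (-0.67 with olfactory centring), whereas Lif and Flt3l were called as deposited and in none of the 3 other scalings. The erythropoietin receptor gene Epor, whose product also signals through Jak2, differed by -0.22 and was not called.

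Of 22 further genes listed as negative regulators and tested, 6 were called higher and 2 lower, with a median of 0.04. Under the other scalings 7, 7 and 14 were higher and 0 lower. The list also took in Sh2b1 and Cbll1, and a place in it does not show that a gene's product restrains the route. Ptprj, a receptor tyrosine phosphatase also known as CD148, stood at 9.335, 8.996 and 9.576 in platelets and at 5.14, 5.33 and 5.41 in progenitors, a difference of 4.01. The phosphatase gene Ptpn1 was higher by 1.97 and Ubash3b, a phosphatase that acts on kinases of the Syk type, by 1.94. The called genes that were lower were Cish, a STAT5 target that feeds back on cytokine receptors, with -0.75, and Pias4, a SUMO ligase, with -0.74, and neither was called under any of the 3 other scalings. Cblb, the close relative of Cbl, stood at a mean of 4.997 in platelets and 5.002 in progenitors and differed by -0.0051 (95% interval -0.23 to 0.22), whereas Cbl differed by 3.51. Cblb was called higher with olfactory centring (0.71) and in none of the other scalings.

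Of 7 SRC family genes and their regulators tested, Fyn was called higher (1.80) and Blk, a kinase of B cells, lower (-0.83), the latter as deposited alone of the 4 scalings. Under the other scalings 1, 2 and 4 of this list were higher and 0 lower. The list of adaptors, RAS-MAPK and PI3K genes had the most calls. Of its 22 tested genes 12 were called higher and 0 lower, with a median of 0.71, and under the other scalings 14, 15 and 20 were higher and 0 lower. Ptpn11, which encodes the phosphatase SHP2 and passes cytokine signals to RAS, stood at 9.45, 9.07 and 9.73 in platelets and at 5.16, 5.41 and 5.59 in progenitors, a difference of 4.03. Nras, a RAS GTPase, was higher by 2.55 and Pik3r1, a regulatory subunit of PI3K, by 2.03.

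Of 19 known target genes of STAT5 and STAT3, 5 were called higher and 2 lower, with a median of 0.08, and under the other scalings 5, 5 and 11 were higher and 1 lower. Higher were the survival gene Bcl2l1 (1.61), the cyclin gene Ccnd2 (1.52), the repressor gene Gfi1b (1.33), Ccnd3 (0.99) and Mcl1 (0.86). Lower were Lcn2 (-1.75), a neutrophil granule gene that also stands in the marker list, and Cish. Other targets, Pim1 (-0.17), Socs1 (-0.07), Socs2 (-0.34) and Myc (-0.30), were not called, except Socs1 with olfactory centring (0.65).

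**Figure D3:**
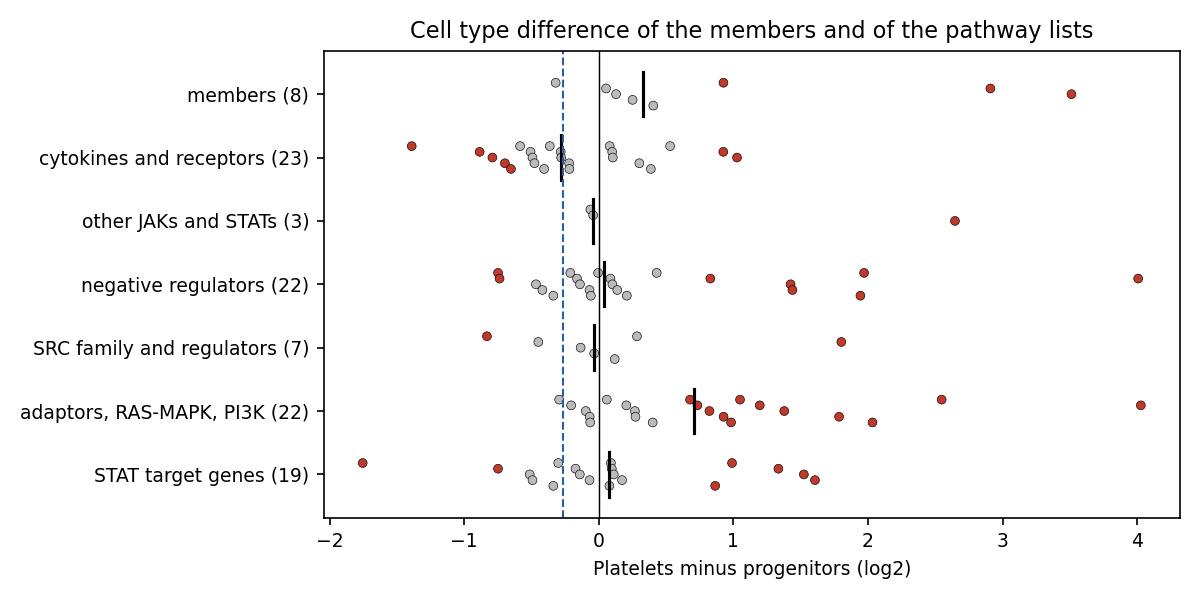
Each point is the log2 difference of a gene between platelets and progenitors, for the 8 members and the 6 lists of other pathway genes, with called genes in red, the list's median as a black bar and the median of all genes tested (-0.26) as a dashed line. The adaptor list lies furthest to the right with a median of 0.71, and in the other lists a few genes such as Ptprj and Jak1 stand apart from the rest.

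The next comparisons concern the EVs. Averaged over both cell types, 0 members were called by limma for CTC41-EVs against PBS, for CTC41.5G-EVs against PBS or between the EV types, as were 0% of all genes in each. EV differences of opposite sign in the cell types cancel in this average, and unequal ones count as spread. At an unadjusted p under 0.05, limma gave 577, 1171 and 1157 genes, or 3.06%, 6.2% and 6.13%. Of the members, Cbl was the one with such a p, in both comparisons of CTC41.5G-EVs. Its limma difference was 0.42 against PBS (SE 0.17, 95% interval 0.01 to 0.83, adjusted p = 0.794) and 0.43 against CTC41-EVs (SE 0.17, 95% interval 0.02 to 0.85, adjusted p = 0.805), with the same sign in both cell types for the probe used and the opposite sign in progenitors for the other Cbl probe (-2.25 and -2.47). It failed the correction over all genes. The adjusted p of the members was 1 for CTC41-EVs, 0.794 to 0.973 for CTC41.5G-EVs and 0.805 to 0.962 between the EV types. These comparisons share arrays, so that a deviation of a single array enters more than 1 of them.

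Within a cell type each EV comparison set 1 array against 1 array, so it has no test and no replicate check. Genes were counted at a 1.5-fold difference if their mean in the cell type was at least 5.07, the 75th percentile over all probes. In platelets 7 members met this (Socs3 did not), and 0 of them were past 1.5-fold in any of the 3 comparisons. All genes were past it in 2.79% of cases for CTC41-EVs against PBS, 1.95% for CTC41.5G-EVs against PBS and 3.67% between the EV types. In progenitors 6 members met it, without Jak2 and Socs3, again with 0 past 1.5-fold, beside 3.2%, 6.22% and 1.39% of all genes.

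In platelets given CTC41-EVs, 6 of the 7 members were lower than with PBS, as were 61.1% of all genes over the floor, and the median was -0.11 beside -0.06 over all genes. Cbl differed by -0.19, Stat5b by -0.13, Stat5a by -0.12 and Jak2 by -0.11, each far below the fold threshold. After quantile normalization Cbl (0.065) and Sh2b3 (0.057) had the other sign. With CTC41.5G-EVs against PBS 1 of the 7 was lower (Stat3), beside 48.6% of all genes, the median of the 7 was 0.14 beside 0.01 over all genes, and Cbl (0.35) and Stat5b (0.20) were the furthest from 0. Between the EV types, CTC41.5G-EVs minus CTC41-EVs, all 7 were higher (Stat3 by 0.03, which turned to -0.022 and -0.019 with quantile normalization and olfactory centring), with a median of 0.15 beside 0.07, and 39% of all genes were lower. Here Cbl differed by 0.54, a fold of 1.45, and Stat5b by 0.33. Of the 63 other pathway genes over the floor in platelets, Ptpn11 (0.66) was the 1 past 1.5-fold, or 1.59% of them.

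The median over the 14 platelet markers was -0.15 for CTC41-EVs against PBS, 0.36 for CTC41.5G-EVs against PBS and 0.49 between the EV types in platelets, next to -0.19, 0.35 and 0.54 for Cbl. Of the 14 markers, 12 were lower and 2, Pf4 and Ppbp, higher with CTC41-EVs than with PBS, and 14 were higher with CTC41.5G-EVs than with either. Their part in the Cbl values was not tested.

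In progenitors the members' median was 0.13 for CTC41-EVs against PBS, 0.19 for CTC41.5G-EVs against PBS and 0.08 between the EV types, beside 0.04, 0.13 and 0.08 over all genes. Of the 6 members over the floor, 0, 0 and 1 (Sh2b3) were lower in these comparisons, beside 37.3%, 25.1% and 31.5% of all genes. Cbl had the largest differences, with 0.16, 0.49 and 0.33. Stat3 was higher by 0.22 and Stat5a by 0.20 with CTC41.5G-EVs than with PBS, while Jak2, under the floor there, spanned 0.03 over the 3 arrays.

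**Figure D4:**
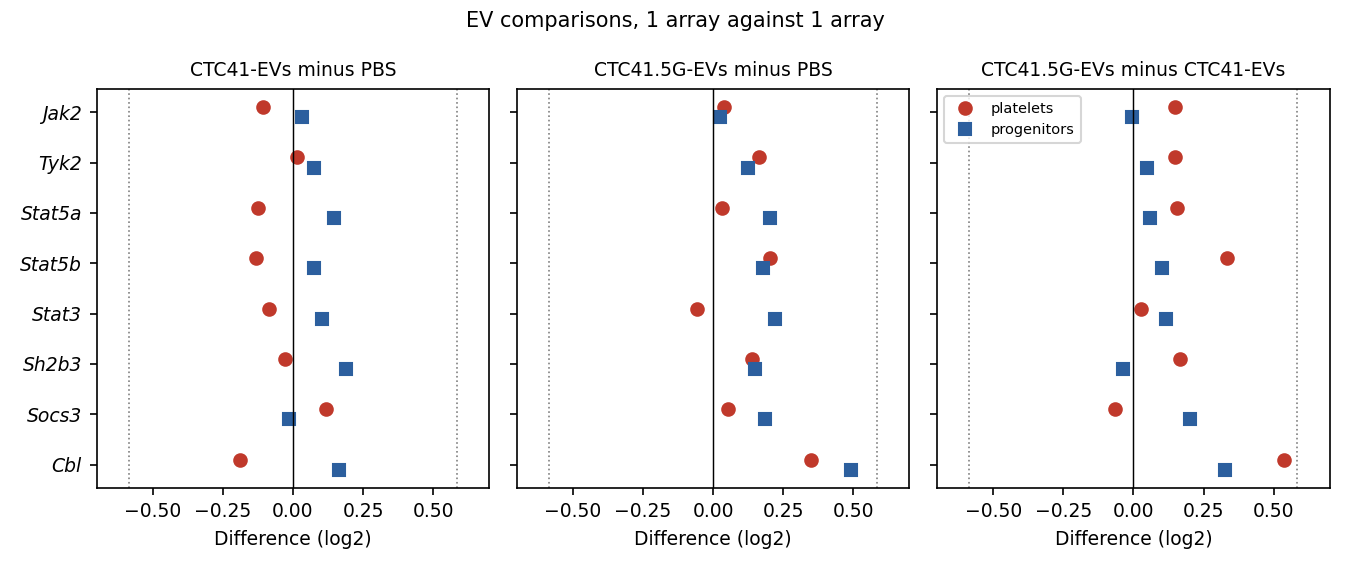
The log2 difference of each member in the 3 EV comparisons, with platelets as red circles and progenitors as blue squares, each from 1 array against 1 array, and dotted lines at 1.5-fold. All points lie between the lines, and Cbl lies furthest out, at 0.54 in platelets between the EV types and 0.49 in progenitors for CTC41.5G-EVs against PBS.

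The 2 probes of Cbl differed most on a single array. The second probe stood at 9.19, 8.69 and 9.38 in platelets, against 8.85, 8.66 and 9.20 by the first. In progenitors with PBS and CTC41-EVs it stood at 5.67 and 5.89, against 5.18 and 5.34 by the first. With CTC41.5G-EVs it stood at 3.42, where the first probe was at its highest progenitor value, 5.67. By the second probe Cbl thus differed by -2.25 between CTC41.5G-EVs and PBS in progenitors, against 0.49 by the first. Its span of 2.47 over the progenitor arrays was the largest of all 30604 probes with a single gene symbol. Its mean of 4.99 in progenitors lay under 5.07, so it would not have entered the count. In platelets the probes had the same sign in each EV comparison, with -0.50, 0.19 and 0.69 by the second, where 0.69 is past 1.5-fold. The difference between the cell types was 4.09 by the second probe and 3.51 by the first.

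**Figure D5:**
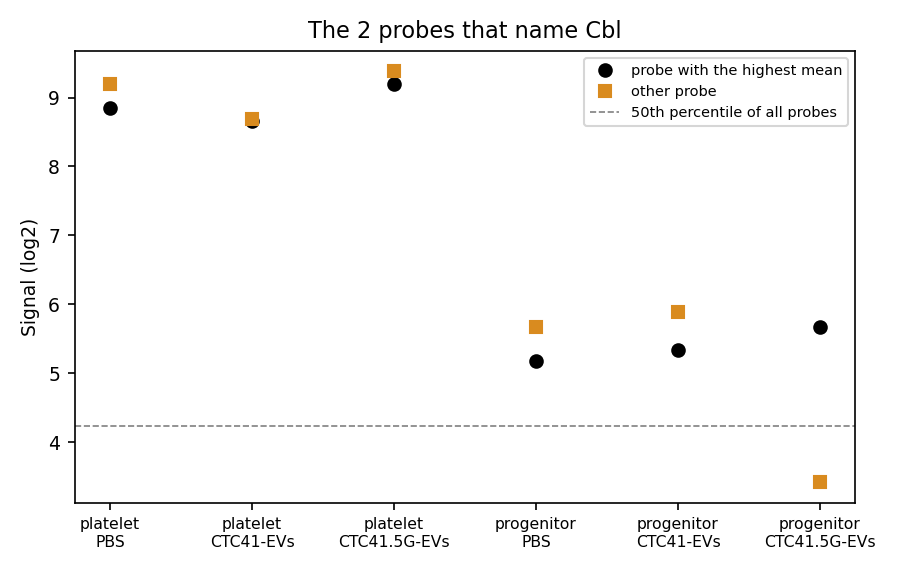
The log2 signal of the 2 probes that name Cbl on the 6 arrays, with the probe used as black circles, the other as orange squares and the floor of 4.23 as a dashed line. The probes lie closer together on 5 arrays, with the other probe the higher, and are furthest apart, at 5.67 and 3.42, on the progenitor array of CTC41.5G-EVs.

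Genes with the most similar pattern were found by the Euclidean distance between the 6 log2 values, each gene centred on its mean, over the 18875 genes tested. Nearest to Jak2 were Lyz2 (0.15), Fam13b (0.18) and Cmah (0.20). Nearest to Cbl, the member with the largest difference, were Itgb3 (0.18), Atp8a1 (0.20) and AI504432 (0.22). Itgb3, a subunit of the platelet fibrinogen receptor, stood at 9.75, 9.40 and 10.15 in platelets and at 6.07, 6.17 and 6.45 in progenitors. It was picked by its distance to Cbl over these same values, so a shared order of the treatments follows from the choice. Of the 14 platelet markers, Itgb3 among them, 12 were lower in platelets with CTC41-EVs than with PBS, and 14 were higher with CTC41.5G-EVs. Nearest to Stat5a, the member with the lowest difference, were Hlf (0.05), Gm14660 (0.06) and Gtf3c2 (0.06).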

How the data were processed

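The deposited values are log2 signals of 72688 probes, between 0.23 and 14.06, which the authors made with Affymetrix Expression Console 1.4.1.46, per the submitters' processing notes. The series text instead names MAS5.0, so how arrays were scaled to each other is not settled, and it gives both 3 ng and 5 ng of input RNA. The genome build was not given in the sources used here. Values entered as deposited. Probes with 1 gene symbol (30604) were kept, and those with several (2146) or no symbol (39938) left out. Entrez identifiers linked 22818 probes to RefSeq (GRCm38.p6), with 827 symbols brought up to date. Probes may not separate paralogs such as Stat5a and Stat5b fully.

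Cell types were set against each other in limma 3.58.1 (R 4.3.3), with additive cell type and treatment terms, an intensity trend and 2 residual degrees of freedom, over 18875 genes with a mean of at least 4.23. P-values were adjusted by Benjamini-Hochberg over all of these and measure only the spread between these arrays, which may be technical. Arrays have no read depth, so their number limits the precision. The fit was also run on simulated data with independent noise and differences planted in a small set of genes. Those data held no shift between the arrays of the cell types, so that run cannot check the calls made here.

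Named pathway genes are the called genes with the 3 largest differences per list and direction, plus Jak1 and Cish, with some results not reported here. Stat2, Stat6, Epor, Cblb, Ccnd3, Mcl1, Pim1, Socs1, Socs2 and Myc were added after their values were seen. Members and lists were chosen with earlier results of these data known. Alternatives changed the scaling, floor, variance model, treatment term, probe choice and arrays included. Use of the other Cbl probe was chosen after seeing the data.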

Additional observations from a re-analysis of the deposited data

Results flagged for a closer look

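Several members moved in opposite directions with EVs in the 2 cell types, each from 1 array against 1 array, and the differences between the cell types were not tested. Against PBS, CTC41-EVs went with lower platelet and higher progenitor values of Jak2 (-0.11 and 0.03, the latter at background), Stat5a (-0.12 and 0.15), Stat5b (-0.13 and 0.07), Stat3 (-0.085 and 0.11), Sh2b3 (-0.027 and 0.19) and Cbl (-0.19 and 0.16), while Socs3 had 0.12 in platelets and -0.01 in progenitors. Over all genes above the 75th percentile, 61.1% were lower in platelets and 37.3% in progenitors in this comparison. Their median absolute difference was 0.14 in platelets and 0.10 in progenitors. The share of all genes with opposite signs was not counted. For CTC41.5G-EVs against PBS, Stat3 had -0.057 in platelets and 0.22 in progenitors. Between the EV types, Jak2 had 0.15 and -0.01 (at background in progenitors, so its sign there has no meaning), Sh2b3 0.17 and -0.04, and Socs3 -0.064 and 0.20. With quantile normalization Cbl and Sh2b3 no longer had opposite signs for CTC41-EVs, with 0.065 and 0.057 in platelets. None of these differences reached 1.5-fold.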

How the results depend on the processing

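Jak2, Sh2b3 and Cbl were called higher in platelets under every alternative in which they were tested. With the floor at the 90th percentile Jak2, Tyk2 and Socs3 were not tested, 2 members were called and 2115 genes were called in all, against 7917, since 3066 genes entered. The number of members called, 3 as deposited, was 5 when array medians were set equal and 7 with olfactory centring. The genes called were split into 3063 higher and 4854 lower as deposited, 4141 and 2282 after quantile normalization, 4673 and 1911 with equal medians and 7628 and 1029 with olfactory centring. Stat5a turned to 0.056 with equal medians and 0.40 with olfactory centring. Without 1 array at a time Socs3 spanned -0.012 to 0.12, with the negative value without either CTC41-EVs array. Without any 1 array, 3 members were called each time, with 7323 to 8378 genes in all, on 1 residual degree of freedom, and the treatment's other array then adds nothing to the cell type term. In these fits the adjusted p of Stat5b was 0.0236 to 0.0911 and that of Stat5a 0.028 to 0.191. Without a treatment term Stat3 had an adjusted p of 0.0382. In the EV comparisons within a cell type no array can be left out. Under the mean of a gene's probes 1 member, Cbl, was past 1.5-fold in platelets between the EV types (0.61), and, with the sign turned, in progenitors for CTC41.5G-EVs against PBS (-0.88, against 0.49) and between the EV types (-1.07, against 0.33), and with the other Cbl probe 1 member was past it in platelets between the EV types. In the EV fits averaged over both cell types 0 members were called under each alternative.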
